A study of Homo sapiens with 12 samples.

Results

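The genes described are 44 genes of ribosome biogenesis and the nucleolus, chosen by name for their known roles, matched by gene symbol and Entrez identifier, and they were followed in WI-38 cells, a line of normal human lung fibroblasts. The count table listed 25702 genes, of which 9490 passed the filter of at least 10 cpm (counts scaled for library size and composition) in at least 6 of the 12 libraries, and 43 of the 44 members were among them. BOP1 was the member below the filter. The members fell into 7 genes of RNA polymerase I, 9 of the small nucleolar ribonucleoproteins (snoRNPs), 14 of the small subunit, 11 of the large subunit and 3 nucleolar proteins that act at several steps.

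The study asked how transforming growth factor-β (TGF-β), the cytokine that drives fibroblasts toward contractile myofibroblasts, alters the transcriptome early and late. Flasks of WI-38 cells without TGF-β were harvested on day 1 (D1) and day 20 (D20), and flasks with TGF-β on the same days (D1+ TGF-β and D20+ TGF-β), with 3 flasks sequenced per condition. D1 flasks were confluent at treatment, whereas D20 flasks had been seeded from 1 flask of each treatment on day 1 and kept with or without TGF-β, at a density set to be nearly confluent at harvest. The D20 flasks of a treatment therefore shared a parent flask, the tests measure the spread between these flasks only, and time cannot be told apart from reseeding.

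Ribosome biogenesis begins when RNA polymerase I transcribes the ribosomal RNA (rRNA) genes in the nucleolus. Small nucleolar RNAs and their proteins then modify and fold the precursor, large processing complexes cut it, and assembly factors build the small and large subunits before export to the cytoplasm. The pathway is known to be costly to a cell, to be active in growing cells and to include many targets of the transcription factor MYC.

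The libraries held 8674488 to 18286197 counts, and the 44 genes took 0.250% to 0.450% of the counts of a library. The fibroblast marker VIM stood between 5849.6 and 7874 cpm, and COL1A1 between 2548 and 8184 cpm. Other listed fibroblast markers also differed between conditions. LUM ran from 33.9 cpm in a D1 flask to 365 cpm in a D20+ TGF-β flask. THY1 ran from 290 cpm in a D20+ TGF-β flask to 732 cpm in a D20 flask. The summed level of 10 markers of epithelial, endothelial and blood cells was 0.681 to 2.69 cpm in D1 flasks, D1+ TGF-β and D20+ TGF-β and 7.18 to 7.82 cpm in D20 flasks, where CD14 alone stood at 5.43 to 6.30 cpm, and KRT5, KRT14, CDH5 and CD3E were at 0 in every library. TGF-β raised ACTA2, which codes for α-smooth muscle actin, by 2.07 on the log2 scale at D1. At D20 ACTA2 differed by 0.13 and was not called.

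Nearly the whole group was lower at D20 than at D1 without TGF-β. With TGF-β the median fall was 0.46 on the log2 scale, against 0.65 without it. Only FBL was called when the fall with TGF-β was tested against the fall without it. The summed level of the 44 members was 4033, 3821 and 4404 cpm in D1 flasks, 4642, 4657 and 4392 cpm in D1+ TGF-β flasks, 2744, 2652 and 2626 cpm in D20 flasks, and 3498, 3353 and 3636 cpm in D20+ TGF-β flasks. The 3 flasks of D20 lay below all other flasks, and those of D20+ TGF-β lay between D20 and both day 1 conditions without overlap. NPM1 and NCL supply a large part of that sum. Without them the sums were 2415 to 2699 cpm in D1 flasks, 2692 to 2822 cpm in D1+ TGF-β flasks, 1615 to 1674 cpm in D20 flasks and 1993 to 2066 cpm in D20+ TGF-β flasks, and the order was the same. In bulk RNA, fewer cells that make a transcript and less of that transcript per cell cannot be told apart.

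**Figure D1:**
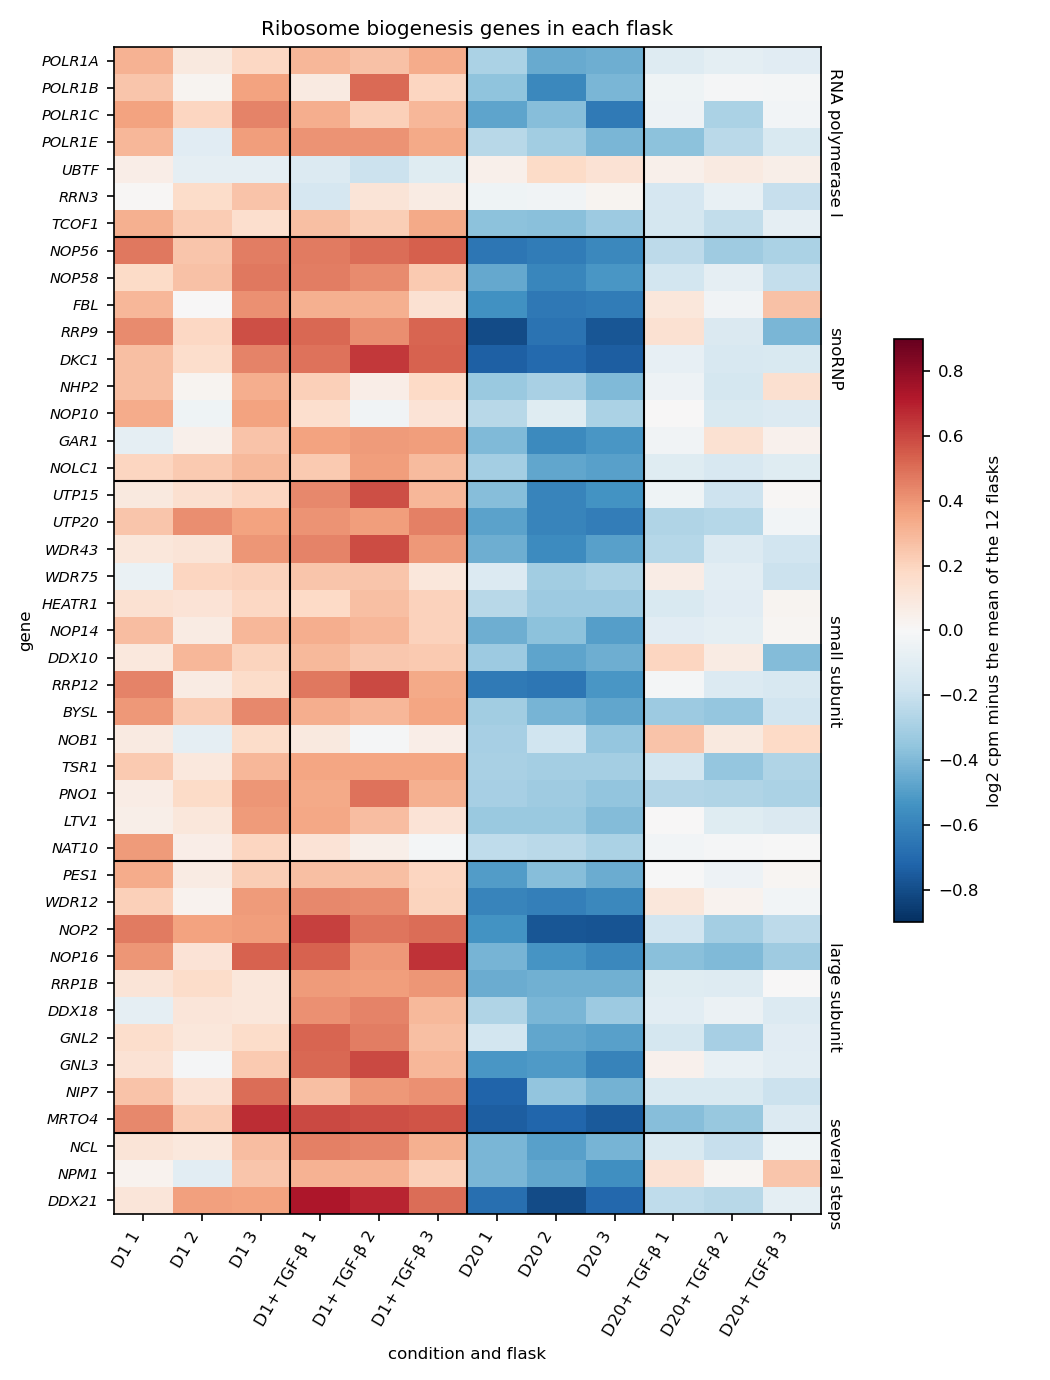
Level of each tested member in each of the 12 flasks, as log2 cpm minus the gene's mean over the flasks (colour scale, log2 units), with genes in rows by role and flasks in columns by condition. D20 was the lowest condition for 41 of the 43 genes, and D1+ TGF-β the highest for 35.

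In D20 vs D1, 41 of the 43 tested members were called lower and 0 higher by edgeR's quasi-likelihood test, with p adjusted over all 9490 genes by the method of Benjamini and Hochberg, at an adjusted p under 0.01. Over all genes tested 36.4% were called, 17.6% of them lower and 18.9% higher as shares of the genes tested. The median log2 fold change was -0.65 for the members and 0.01 for all genes. All flasks of D20 were below all flasks of D1 for 41 members, which was so for 26.2% of all genes. The falls ran from 0.33 to 1.19 on the log2 scale, and the unadjusted p was under 0.05 in the upward direction for 1 member, UBTF. Without D1 flask 2, 40 members were called lower. That flask had the highest summed level of proliferation genes in D1, though not of each one (MCM2 at 32.8 cpm against 41.6 and 39.8). It also stood apart in other genes, such as CTGF (592 cpm against 294 and 277) and LUM (33.9 against 73.8 and 72.3).

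The comparison D20+ TGF-β vs D1+ TGF-β had 28 members called lower and 0 higher, against 34.8% of all genes called, 17.7% lower and 17.2% higher. The median was -0.46 for the members and 0.01 for all genes. Flasks did not overlap in the downward direction for 35 members, against 31.5% of all genes. All 28 were also called lower in D20 vs D1, and 13 members were called in D20 vs D1 alone. Since 41 of the 43 members were called lower there, nearly any 28 members would overlap so. The 2 comparisons share no library, but they come from 1 fit with a shared estimate of the spread. Across the 43 members the log2 fold changes of both time comparisons had a Pearson r of 0.72, a description over genes that share libraries and are not independent.

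**Figure D2:**
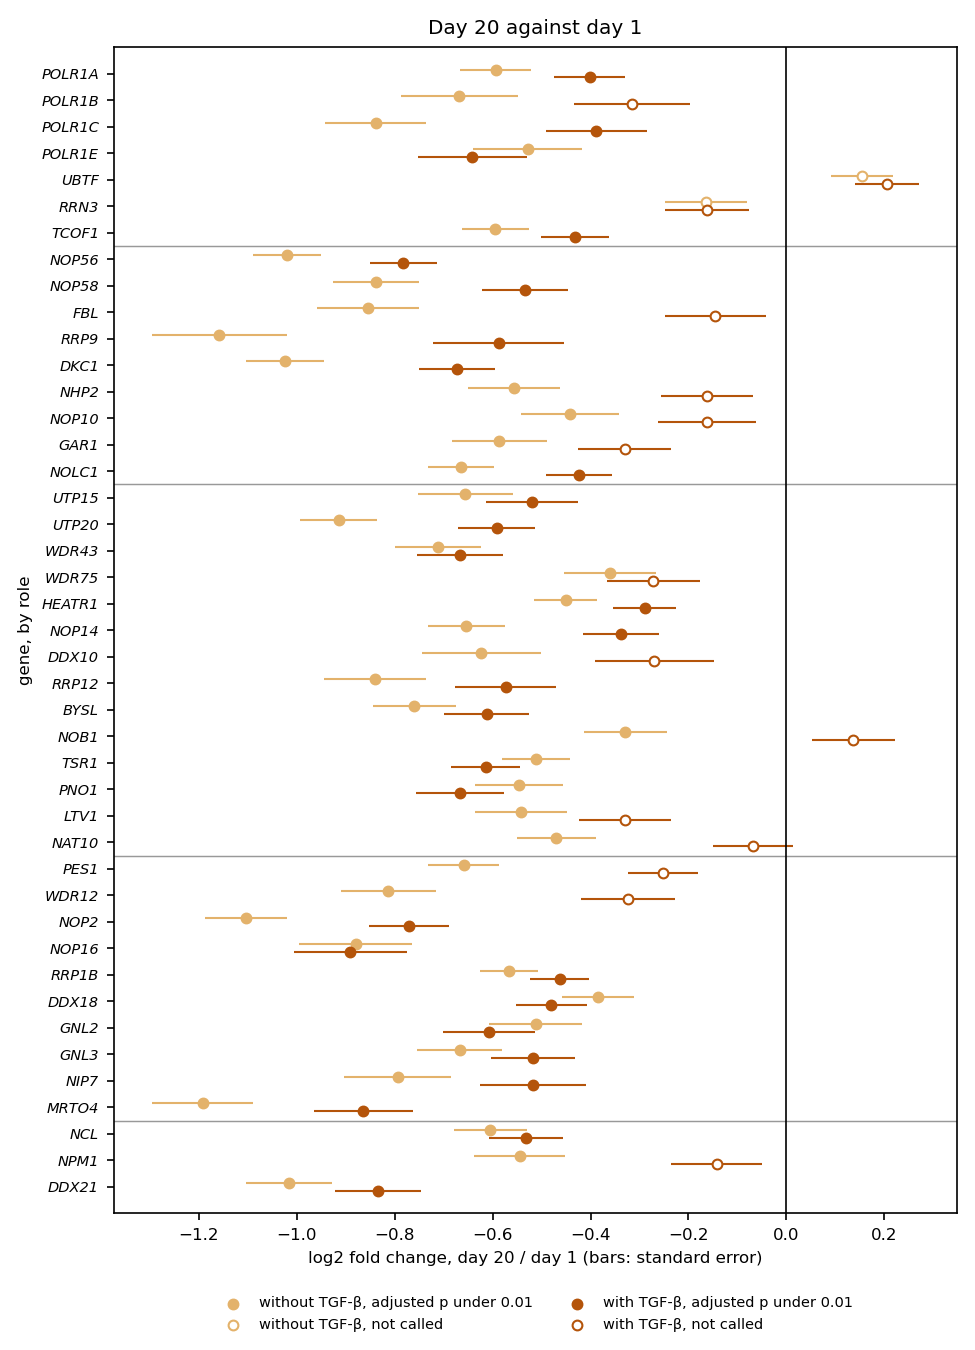
Log2 fold change of day 20 over day 1 (x axis) for each member (y axis, by role), without TGF-β (light) and with TGF-β (dark), with standard errors as bars and filled points for genes called at an adjusted p under 0.01. Without TGF-β 41 genes were called lower and with TGF-β 28, and UBTF lay to the right of 0 in both.

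TGF-β at day 1 moved few members. In D1+ TGF-β vs D1, DDX21, GNL3, DDX18 and RRP1B were called higher and 0 members lower, against 13.4% of all genes called, 6.89% higher and 6.5% lower. The share of members called was thus near the share of all genes called higher. The median was 0.09 for the members and -0.02 for all genes, 35 members had a log2 fold change above 0 (46.8% of all genes did), and 12 members, all higher, had an unadjusted p under 0.05. Flasks did not overlap in the upward direction for 11 members, against 17.6% of all genes. Without a correction for library composition the median was 0.02, 27 members lay above 0, 0 were called, and the split of all calls changed from 654 higher and 617 lower to 500 higher and 938 lower. The 4 calls were lost without D1 flask 1, without D1+ TGF-β flask 1 and without D1+ TGF-β flask 2, and 1 or 2 remained without D20 flask 1, 2 or 3 or D20+ TGF-β flask 2.

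At day 20 more members were called. In D20+ TGF-β vs D20, 23 members were called higher and 0 lower, against 27.5% of all genes called, 12.8% higher and 14.7% lower. The median was 0.34 for the members and 0.01 for all genes, and 41 members had a log2 fold change above 0, as did 51% of all genes. Flasks of D20+ TGF-β were above all flasks of D20 for 34 members, against 28.7% of all genes. The number called was 14 without D20 flask 2, 13 without D20 flask 3 and 20 without D20+ TGF-β flask 3. The last of these flasks stood apart in its proliferation genes and also in others, such as COL3A1 (728 cpm against 1353.5 and 1498). Without a composition factor the split of all calls went from 1210 higher and 1399 lower to 1490 higher and 1153 lower, with 28 members higher. In D20 vs D1 the same setting moved it from 1789 higher and 1668 lower to 1389 higher and 2112 lower, with 41 members still lower.

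**Figure D3:**
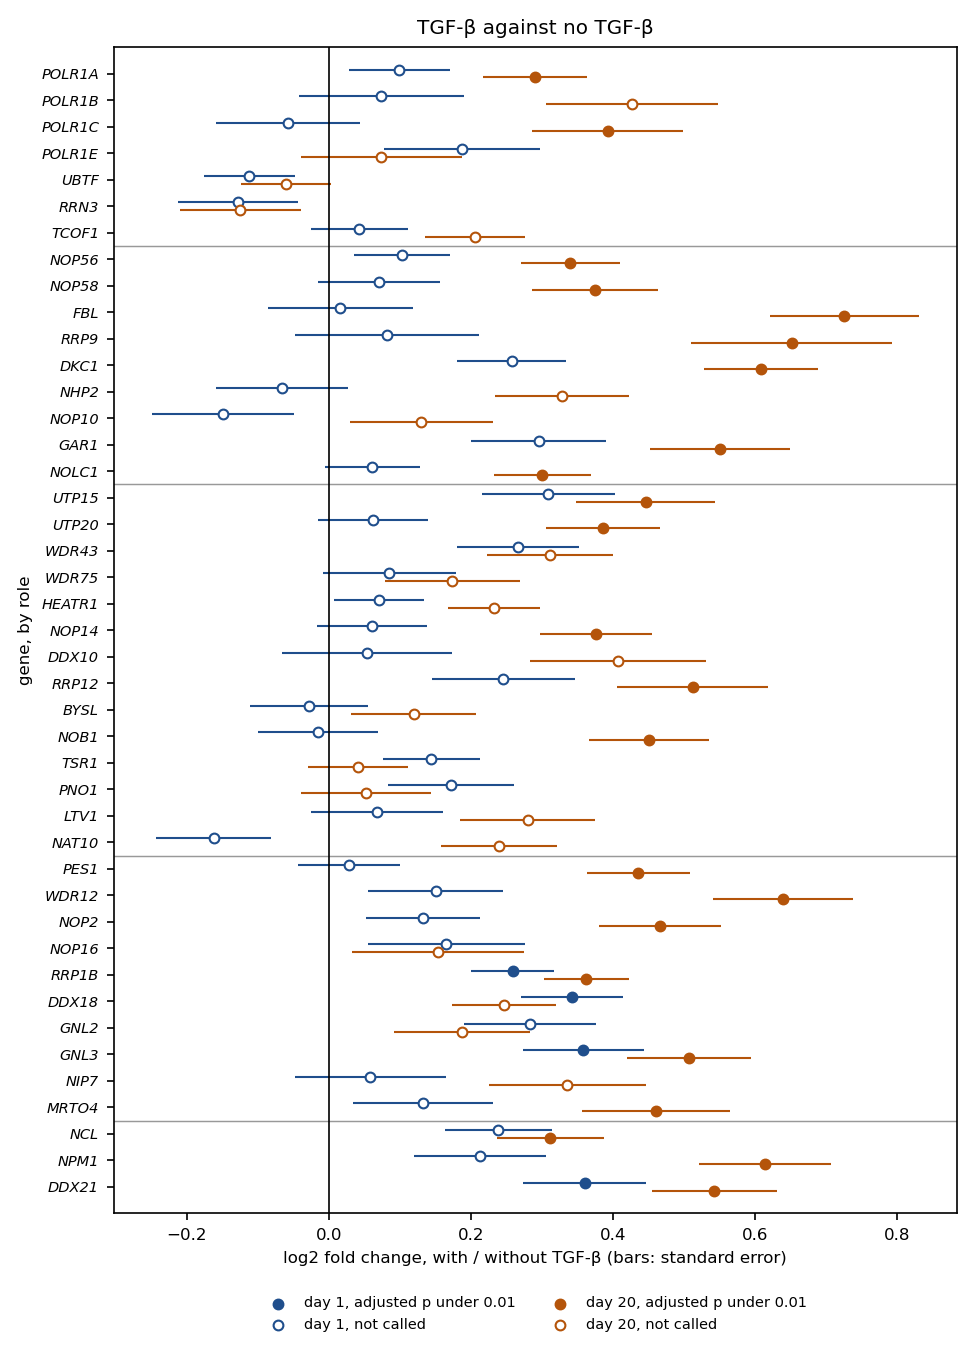
Log2 fold change with over without TGF-β (x axis) for each member (y axis, by role) at day 1 (blue) and day 20 (orange), with standard errors as bars and filled points for genes called at an adjusted p under 0.01. At day 1 4 genes were called and at day 20 23, with FBL at 0.73 the highest.

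The snoRNP genes showed the largest median fall in D20 vs D1 among the 5 roles, -0.84, and all 9 were called. Box C/D snoRNPs guide methylation of rRNA. Fibrillarin (FBL) is the methyltransferase and NOP56 and NOP58 are core proteins. NOP56 had the highest mean cpm of this role. It stood at 118, 101 and 117 cpm in D1 flasks, 117, 120.1 and 123 cpm in D1+ TGF-β flasks, 54.0, 54.8 and 56.6 cpm in D20 flasks and 71.8, 68.0 and 69.6 cpm in D20+ TGF-β flasks. Both conditions of day 20 lay below both of day 1, and D20 below D20+ TGF-β, without overlap. NOP56 fell by 1.02 (SE 0.07, adjusted p = 1.75e-07) without TGF-β and by 0.78 (SE 0.07, adjusted p = 2.73e-06) with it, and was higher by 0.34 (SE 0.07, adjusted p = 0.00165) in D20+ TGF-β vs D20.

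FBL is the member whose TGF-β responses differed between days, as described further on. Its level was 83.6, 68.4 and 90.6 cpm in D1 flasks, 84.9, 84.8 and 75.0 cpm in D1+ TGF-β flasks, 46.6, 43.6 and 43.9 cpm in D20 flasks and 73.2, 66.6 and 81.7 cpm in D20+ TGF-β flasks. Only the D20 flasks stood apart, since those of D20+ TGF-β overlapped with the D1+ TGF-β flasks. FBL fell by 0.85 (SE 0.10, adjusted p = 1.82e-05) in D20 vs D1 and was 1.65-fold higher in D20+ TGF-β vs D20, a log2 fold change of 0.73 (SE 0.10, adjusted p = 1.12e-04). Between D1+ TGF-β and D20+ TGF-β it differed by -0.15 (SE 0.10, adjusted p = 0.256) and was not called.

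RRP9, a protein of the U3 snoRNP that serves the first cuts of the rRNA precursor, was at 22.1, 18.7 and 24.6 cpm in D1 flasks, 23.5, 22.01 and 23.7 cpm in D1+ TGF-β flasks, 9.31, 10.3 and 9.55 cpm in D20 flasks and 18.1, 15 and 12.3 cpm in D20+ TGF-β flasks. The treated flasks of day 20 spread widely (CV 18.9%) but all lay above the untreated ones. RRP9 fell by 1.16 (SE 0.14, adjusted p = 1.45e-05) without TGF-β and by 0.59 (SE 0.13, adjusted p = 0.00259) with it, the latter lost without D1+ TGF-β flask 1 or 3 or D20+ TGF-β flask 2 (adjusted p up to 0.0106). It was higher by 0.65 (SE 0.14, adjusted p = 0.00237) in D20+ TGF-β vs D20, a call that was lost without D20 flask 3 and without D20+ TGF-β flask 1 (adjusted p up to 0.0160).

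Box H/ACA snoRNPs guide the conversion of uridine to pseudouridine, with dyskerin (DKC1) as the enzyme and NHP2, NOP10 and GAR1 as its partners. DKC1 stood at 64.8, 59.98 and 73.3 cpm in D1 flasks, 75.3, 83.3 and 77.5 cpm in D1+ TGF-β flasks, 32.2, 33.0 and 32.1 cpm in D20 flasks and 51.0, 48.5 and 48.7 cpm in D20+ TGF-β flasks. The 4 conditions did not overlap, and D20 had the narrowest spread (32.4 ± 0.509 cpm, SD, n = 3). DKC1 fell by 1.02 (SE 0.08, adjusted p = 4.05e-07) without and by 0.67 (SE 0.08, adjusted p = 1.87e-05) with TGF-β, and was higher by 0.61 (SE 0.08, adjusted p = 5.30e-05) in D20+ TGF-β vs D20. Its partners changed less. NHP2, at 70.5, 59.6 and 73.5 cpm in D1 flasks, 67.8, 60.9 and 66.1 cpm in D1+ TGF-β flasks, 46.4, 47.7 and 44.4 cpm in D20 flasks and 56.7, 52.5 and 64.6 cpm in D20+ TGF-β flasks, fell by 0.56 in D20 vs D1 and was not called in the other 3 comparisons. NOP10 stood at 95.1, 73.5 and 96.9 cpm in D1 flasks, 83.7, 73.8 and 82.1 cpm in D1+ TGF-β flasks, 63.4, 69.8 and 62.0 cpm in D20 flasks and 75.5, 68.6 and 69.3 cpm in D20+ TGF-β flasks, and it too was called only in D20 vs D1, with a fall of 0.44. That call was lost without D1 flask 1 or 3 or D20 flask 1 or 3 (adjusted p up to 0.0150). Both had log2 fold changes just below 0 at day 1 (-0.07 and -0.15, not called).

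Of the remaining snoRNP genes, GAR1, NOP58 and NOLC1, a chaperone of snoRNP assembly, were all called lower in D20 vs D1 (-0.59, -0.84 and -0.66) and higher between D20 and D20+ TGF-β (0.55, 0.37 and 0.30). The last call held for GAR1 in all alternatives and was lost for NOP58 and NOLC1 without D20 flask 2 or 3 or D20+ TGF-β flask 1, and for NOP58 also without D20+ TGF-β flask 2 (adjusted p up to 0.0231 and 0.0226). Of the 9 snoRNP genes 7 were higher in D20+ TGF-β vs D20 and 5 were lower between D1+ TGF-β and D20+ TGF-β.

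Several members also carry snoRNAs within their introns, by the GENCODE annotation of GRCh37. There were 23 such snoRNAs in 8 members (POLR1C, NOP56, NOP58, DKC1, WDR43, TSR1, GNL3 and NCL). The sequences below come from the introns of NOP56 and NOP58, proteins of box C/D snoRNPs, and of DKC1. They are shown because the snoRNA belongs to the class its host's protein binds. That match does not hold throughout, since NOP56 also carries SNORA51, a box H/ACA snoRNA. Capitals mark box C (TGATGA) with box D (CTGA) in the first pair and the ACA box in the third. They lie at chr20:2634858-2634932, chr2:203157772-203157859 and chrX:154003273-154003401, all on the plus strand.
SNORD110 in NOP56: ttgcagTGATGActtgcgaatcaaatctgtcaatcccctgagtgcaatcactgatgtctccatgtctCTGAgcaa
SNORD11 in NOP58: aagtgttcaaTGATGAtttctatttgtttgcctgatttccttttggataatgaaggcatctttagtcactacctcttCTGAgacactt
SNORA56 in DKC1: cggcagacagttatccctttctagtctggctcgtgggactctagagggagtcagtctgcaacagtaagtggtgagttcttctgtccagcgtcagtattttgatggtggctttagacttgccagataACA

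The libraries do not measure these snoRNAs. By name, 19 rows of the count table matched them, with 0 to 13 counts per library. The names SNORD70, SNORD19 and SNORD19B each cover more than 1 of the 23, so 19 is not a share of 23. The 8 host genes had a median log2 fold change of -0.77 in D20 vs D1 and the other 35 members one of -0.59, and 8 of 8 and 33 of 35 were called lower. Between D1+ TGF-β and D20+ TGF-β the medians were -0.57 and -0.40, with 8 of 8 and 20 of 35 called lower.

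All 10 large subunit genes that were tested fell in D20 vs D1, with a median of -0.73. MRTO4, which holds the place of a stalk protein on the immature large subunit, had the largest fall of the 43 tested members. Its level was 64.4, 55.9 and 75.6 cpm in D1 flasks, 72.2, 71.6 and 70.6 cpm in D1+ TGF-β flasks, 28.4, 29.0 and 28.2 cpm in D20 flasks and 36.6, 37.6 and 43.9 cpm in D20+ TGF-β flasks. Neither day 20 condition overlapped with day 1. MRTO4 was 0.438-fold its D1 level at D20, a fall of 1.19 on the log2 scale (SE 0.10, adjusted p = 8.44e-07), and with TGF-β it fell by 0.86 (SE 0.10, adjusted p = 2.14e-05). TGF-β at D20 left it higher by 0.46 (SE 0.10, adjusted p = 0.00324), and this call was lost without any 1 of the D20 flasks and without D20+ TGF-β flask 3 (adjusted p up to 0.0151).

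NOP2, which methylates the rRNA of the large subunit, stood at 47.4, 44.2 and 44.5 cpm in D1 flasks, 52.7, 48.04 and 48.7 cpm in D1+ TGF-β flasks, 23.6, 20.03 and 19.95 cpm in D20 flasks and 30.5, 27.7 and 29.1 cpm in D20+ TGF-β flasks. The 4 conditions did not overlap, and D20 stood at 0.465-fold of D1. It fell by 1.10 (SE 0.08, adjusted p = 3.43e-07) and, with TGF-β, by 0.77 (SE 0.08, adjusted p = 1.05e-05), and was higher by 0.47 (SE 0.09, adjusted p = 7.01e-04) in D20+ TGF-β vs D20. NOP16, a nucleolar factor of large subunit assembly, was at 20.8, 17.2 and 22.8 cpm in D1 flasks, 22.8, 20.7 and 24.9 cpm in D1+ TGF-β flasks, 11.7, 10.9 and 10.5 cpm in D20 flasks and 12.1, 11.9 and 12.6 cpm in D20+ TGF-β flasks. It showed about the same fall in both time comparisons, 0.88 (SE 0.12) without and 0.89 (SE 0.12, adjusted p = 4.43e-05) with TGF-β, the latter the largest among the 43 tested members. At D20 its TGF-β difference was 0.15 (SE 0.12, adjusted p = 0.330).

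PES1, BOP1 and WDR12 form a complex, called PeBoW, that processes the rRNA of the large subunit. WDR12 stood at 37.6, 33.1 and 42.4 cpm in D1 flasks, 43.97, 43.7 and 37.4 cpm in D1+ TGF-β flasks, 21.4, 21.2 and 21.7 cpm in D20 flasks and 34.9, 33.2 and 31.9 cpm in D20+ TGF-β flasks. The D20+ TGF-β flasks lay far above D20 and overlapped with D1. WDR12 fell by 0.81 in D20 vs D1 (SE 0.10, adjusted p = 1.57e-05) and was higher by 0.64 (SE 0.10, adjusted p = 1.91e-04) in D20+ TGF-β vs D20, while between D1+ TGF-β and D20+ TGF-β it differed by -0.32 (SE 0.10, adjusted p = 0.0126). PES1 had like values, -0.66, 0.44 and -0.25 (adjusted p = 0.0106 for the last).

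BOP1, the member below the filter, was at 5.76, 5.51 and 7.15 cpm in D1 flasks, 7.68, 6.47 and 8.18 cpm in D1+ TGF-β flasks, 2.52, 4.48 and 4.10 cpm in D20 flasks and 2.80, 4.42 and 4.21 cpm in D20+ TGF-β flasks, from 26 to 114 counts per library. All day 20 flasks lay below all day 1 flasks. When every gene was tested, BOP1 differed by -0.78 (SE 0.21, adjusted p = 0.00460) in D20 vs D1, by -1.03 (SE 0.21, adjusted p = 3.83e-04) between D1+ TGF-β and D20+ TGF-β and by -0.01 in D20+ TGF-β vs D20. With edgeR's own filter the first adjusted p was 0.0126.

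The large subunit held 3 of the 4 genes called higher at day 1. GNL3 (nucleostemin, a nucleolar GTP-binding protein known from stem cells) had the highest mean cpm of this role. It was at 81.5, 74.2 and 87.8 cpm in D1 flasks, 107, 113 and 91.8 cpm in D1+ TGF-β flasks, 51.9, 52.3 and 49.2 cpm in D20 flasks and 76.8, 71.1 and 69.8 cpm in D20+ TGF-β flasks. TGF-β flasks lay above untreated flasks at both times, by 0.36 at D1 (SE 0.09, adjusted p = 0.00775) and 0.51 at D20 (SE 0.09, adjusted p = 4.33e-04). DDX18, an RNA helicase, stood at 70.5, 80.6 and 80.1 cpm in D1 flasks, 99.4, 102 and 91.5 cpm in D1+ TGF-β flasks, 61.9, 56.0 and 59.4 cpm in D20 flasks and 69.8, 71.9 and 68.5 cpm in D20+ TGF-β flasks. It was higher by 0.34 at D1 (SE 0.07, adjusted p = 0.00379) and had a log2 fold change of 0.25 at D20 (SE 0.07, adjusted p = 0.0154), with no overlap of flasks at either time.

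RRP1B, a nucleolar protein that also binds chromatin, had the narrowest spread of the 4 in all conditions but D20+ TGF-β, where DDX18 did. Its level was 65.8, 68.0 and 65.3 cpm in D1 flasks, 79.4, 79.0 and 79.9 cpm in D1+ TGF-β flasks, 44.5, 44.9 and 44.9 cpm in D20 flasks and 56.2, 55.9 and 60.8 cpm in D20+ TGF-β flasks. The 4 conditions were fully separated. RRP1B was higher by 0.26 at D1 (SE 0.06, adjusted p = 0.00595) and by 0.36 at D20 (SE 0.06, adjusted p = 3.28e-04). GNL2, another nucleolar GTP-binding protein, stood at 73.5, 70.5 and 73.6 cpm in D1 flasks, 94.8, 90.5 and 79.3 cpm in D1+ TGF-β flasks, 58.7, 47.4 and 46.9 cpm in D20 flasks and 58.8, 53.5 and 61.3 cpm in D20+ TGF-β flasks. Its D20 flask 1 was level with the treated flasks, and the TGF-β differences of 0.28 at D1 (adjusted p = 0.0407) and 0.19 at D20 (adjusted p = 0.133) were not called. NIP7, a factor of large subunit assembly, was lower in both time comparisons (-0.79 and -0.52).

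DDX21, an RNA helicase that acts in both transcription and processing of rRNA, was the only one of the 3 proteins of several steps called at day 1. It stood at 141, 169 and 168 cpm in D1 flasks, 217, 211 and 186 cpm in D1+ TGF-β flasks, 81.6, 74.7 and 80.0 cpm in D20 flasks and 112, 109.9 and 123 cpm in D20+ TGF-β flasks. The conditions did not overlap, and the order was D20, D20+ TGF-β, D1, D1+ TGF-β. DDX21 was 1.28-fold higher in D1+ TGF-β vs D1 (log2 fold change 0.36, SE 0.09, adjusted p = 0.00811) and 1.46-fold higher in D20+ TGF-β vs D20 (0.54, SE 0.09, adjusted p = 2.87e-04). It fell by 1.02 (SE 0.09, adjusted p = 9.08e-07) without and by 0.83 (SE 0.09, adjusted p = 9.12e-06) with TGF-β.

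Nucleophosmin (NPM1) and nucleolin (NCL), abundant chaperones of the nucleolus, were the members with the highest level per length, 250.03 and 125 cpm per kb of exon, against 3.30 for POLR1B at the low end of the tested members. NPM1 stood at 871, 796 and 1011 cpm in D1 flasks, 1059, 1058 and 986 cpm in D1+ TGF-β flasks, 640.2, 615 and 582 cpm in D20 flasks and 934, 864 and 1014 cpm in D20+ TGF-β flasks. As for FBL, only D20 stood apart. NPM1 fell by 0.54 (SE 0.09, adjusted p = 2.94e-04) in D20 vs D1 and was 1.53-fold higher in D20+ TGF-β vs D20 (0.61, SE 0.09, adjusted p = 1.65e-04), and it differed by -0.14 (SE 0.09, adjusted p = 0.218) between D1+ TGF-β and D20+ TGF-β. The annotation names 49 pseudogenes after NPM1, so how its reads were shared is uncertain. NCL, at 407.6 to 782 cpm over all flasks, was lower in both time comparisons (-0.60 and -0.53) and higher at D20 with TGF-β (0.31). The last call was lost without any 1 of the D20 flasks or D20+ TGF-β flask 1 or 3 (adjusted p up to 0.0272).

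**Figure D4:**
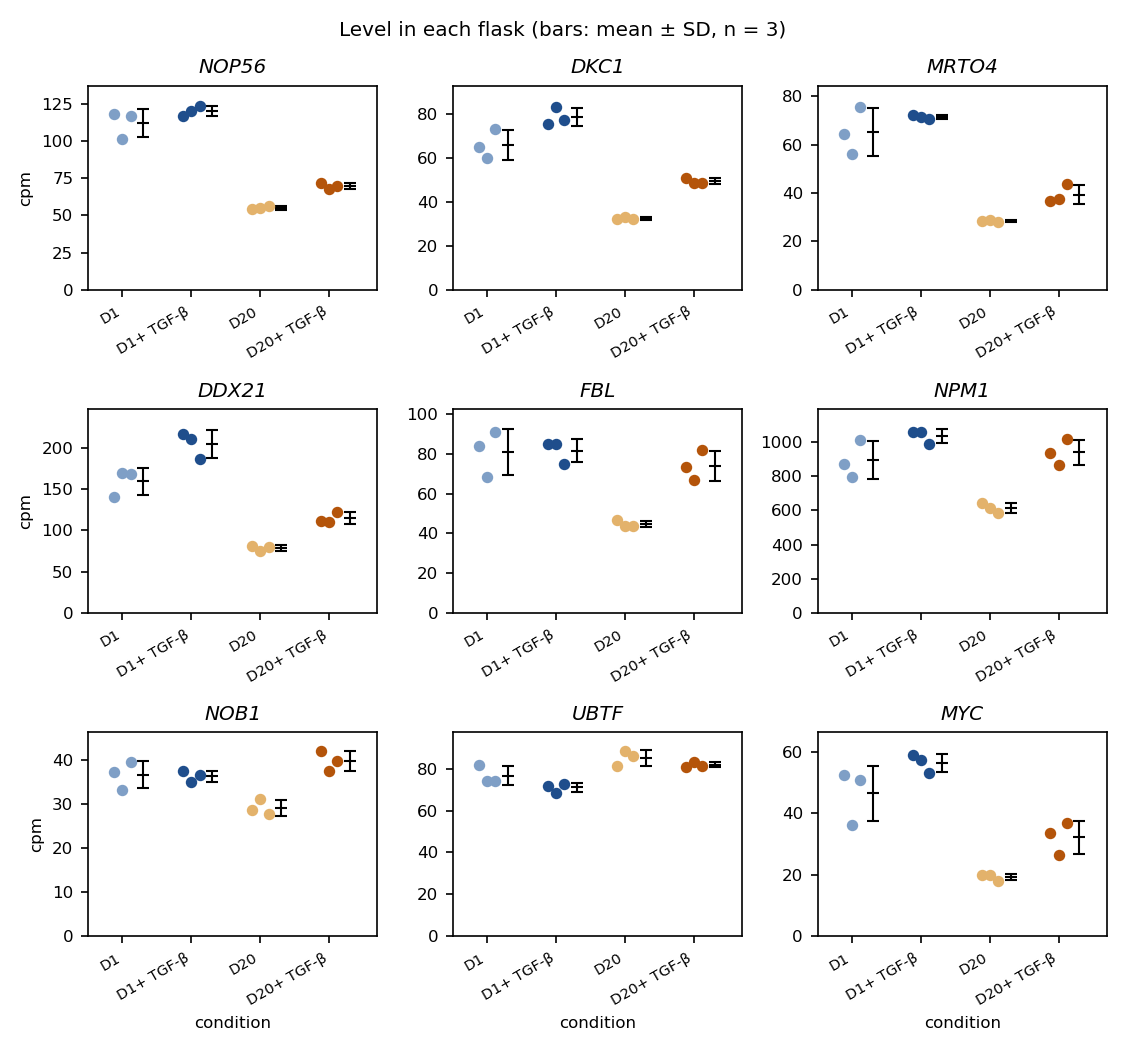
Level in cpm (y axis, from 0) in each flask (points) of the 4 conditions (x axis), with mean ± SD of 3 flasks as bars, for 8 members and MYC. D20 was the lowest condition in each panel except that of UBTF, where it was the highest with 81.1 to 88.6 cpm.

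All 14 small subunit genes were called lower in D20 vs D1, with a median of -0.58, and 9 between D1+ TGF-β and D20+ TGF-β. HEATR1, a protein of the processome that carries out the early cuts, had the highest mean cpm of this role. It was at 129, 127 and 134 cpm in D1 flasks, 133, 141 and 135 cpm in D1+ TGF-β flasks, 98.5, 93.3 and 93.5 cpm in D20 flasks and 107, 109 and 119 cpm in D20+ TGF-β flasks. The day 20 flasks lay below the day 1 flasks and the treated D20 flasks above the untreated ones. HEATR1 fell by 0.45 (SE 0.06, adjusted p = 6.51e-05) without and by 0.29 (SE 0.06, adjusted p = 0.00223) with TGF-β, the latter lost without D1+ TGF-β flask 2 or D20+ TGF-β flask 1 or 2 (adjusted p up to 0.0173). At D20 the TGF-β difference was 0.23 (SE 0.06, adjusted p = 0.0107) and just missed the threshold.

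The other processome genes moved the same way. UTP20 had the largest fall of this role, 0.91 (SE 0.08, adjusted p = 8.94e-07), followed by RRP12, an export factor, with 0.84, BYSL, which helps release the precursor, with 0.76, and WDR43 with 0.71. UTP15, UTP20, NOP14, RRP12 and NOB1 were the 5 called higher in D20+ TGF-β vs D20, by 0.38 to 0.51. The call held for NOB1 in all alternatives and was lost without D20 flask 2 for RRP12, without D20 flask 3 for NOP14, without either for UTP20, and without either or D20+ TGF-β flask 1 for UTP15 (adjusted p up to 0.0161). WDR75 (-0.36) and NOB1 (-0.33) had the smallest falls in D20 vs D1, and both calls were lost without D1 flask 3 or D20 flask 3. WDR75 also lost its call without D1 flask 2 or D20 flask 2, and NOB1 without D1 flask 1 or D20 flask 1 (adjusted p up to 0.0309 and 0.0326).

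NOB1, the endonuclease that makes the last cut of small subunit rRNA, was the 1 tested member with its highest mean in D20+ TGF-β. Its level was 37.3, 33.2 and 39.4 cpm in D1 flasks, 37.3, 34.9 and 36.6 cpm in D1+ TGF-β flasks, 28.6, 31.1 and 27.7 cpm in D20 flasks and 42.0, 37.4 and 39.8 cpm in D20+ TGF-β flasks. D20 lay below all other flasks, as it did for FBL and NPM1 among others, and the D20+ TGF-β flasks overlapped with those of D1. NOB1 was higher by 0.45 (SE 0.08, adjusted p = 8.34e-04) in D20+ TGF-β vs D20 and differed by 0.14 (SE 0.08, adjusted p = 0.195) between D1+ TGF-β and D20+ TGF-β.

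The late-acting TSR1, PNO1 and BYSL were lower at day 20 whether or not TGF-β was present, with small TGF-β differences. TSR1 stood at 77.5, 70.1 and 80.8 cpm in D1 flasks, 84.0, 84.1 and 84.1 cpm in D1+ TGF-β flasks, 53.7, 53.3 and 53.2 cpm in D20 flasks and 58.5, 51.6 and 54.4 cpm in D20+ TGF-β flasks. PNO1 was at 31.6, 34.1 and 39.9 cpm in D1 flasks, 38.3, 42.4 and 37.8 cpm in D1+ TGF-β flasks, 24.5, 24.2 and 23.6 cpm in D20 flasks and 25.1, 25.1 and 24.8 cpm in D20+ TGF-β flasks. In both genes the 6 flasks of day 20 lay close together and below the 6 of day 1. TSR1 fell by 0.51 without and 0.61 with TGF-β, and PNO1 by 0.55 and 0.67. Their TGF-β differences at D20 were 0.04 (SE 0.07, adjusted p = 0.670) and 0.05 (SE 0.09, adjusted p = 0.678). BYSL, at 32.6, 29.1 and 33.5 cpm in D1 flasks, 31.1, 30.5 and 31.8 cpm in D1+ TGF-β flasks, 19.9, 18.5 and 17.9 cpm in D20 flasks and 19.7, 19.4 and 21.99 cpm in D20+ TGF-β flasks, showed the same split by day. Its TGF-β differences were -0.03 at D1 and 0.12 at D20, neither called.

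NAT10, which acetylates small subunit rRNA, stood at 61.7, 49.3 and 54.0 cpm in D1 flasks, 51.4, 49.1 and 46.7 cpm in D1+ TGF-β flasks, 40.4, 39.99 and 38.7 cpm in D20 flasks and 46.5, 47.0 and 47.0 cpm in D20+ TGF-β flasks. D20 was again apart, and the treated conditions of both days overlapped. NAT10 had the lowest log2 fold change of any member in D1+ TGF-β vs D1, -0.16 (SE 0.08, adjusted p = 0.165), and was called only in D20 vs D1 (-0.47). WDR43, WDR75, DDX10, LTV1 and NAT10 had positive but uncalled values in D20+ TGF-β vs D20, 0.17 to 0.41.

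RNA polymerase I genes were divided. The subunits POLR1A, POLR1B, POLR1C and POLR1E and TCOF1 (treacle, a nucleolar partner of the polymerase) were called lower in D20 vs D1, by 0.53 to 0.84, whereas UBTF and RRN3 were called in none of the 4 comparisons. UBTF, which binds the rRNA genes and keeps them open, had the highest mean cpm of this role. It was at 81.8, 74.0 and 74.1 cpm in D1 flasks, 71.9, 68.5 and 72.6 cpm in D1+ TGF-β flasks, 81.1, 88.6 and 86.0 cpm in D20 flasks and 80.8, 83.1 and 81.5 cpm in D20+ TGF-β flasks. Unlike the other members, it was highest at D20. The differences were 0.15 (SE 0.06, adjusted p = 0.0582) in D20 vs D1 and 0.21 (SE 0.06, adjusted p = 0.0175) between D1+ TGF-β and D20+ TGF-β, the second of which was called without a composition factor. With TGF-β UBTF differed by -0.11 at D1 and -0.06 at D20.

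RRN3, which brings the polymerase to its promoter, stood at 55.2, 61.4 and 65.5 cpm in D1 flasks, 49.3, 59.2 and 57.7 cpm in D1+ TGF-β flasks, 53.2, 53.6 and 55.6 cpm in D20 flasks and 49.3, 52.3 and 47.4 cpm in D20+ TGF-β flasks. The 4 conditions lay close together and its log2 fold changes ran from -0.16 to -0.12. By contrast POLR1C, a subunit shared with RNA polymerase III, was at 27.5, 24.4 and 29.2 cpm in D1 flasks, 26.8, 24.8 and 26.3 cpm in D1+ TGF-β flasks, 15.3, 16.3 and 13.7 cpm in D20 flasks and 20.7, 17.5 and 21.0 cpm in D20+ TGF-β flasks. It fell by 0.84 (SE 0.10, adjusted p = 2.03e-05) and was higher by 0.39 (SE 0.11, adjusted p = 0.00921) in D20+ TGF-β vs D20, a call that was lost in 12 of 23 alternative settings (adjusted p up to 0.0550). POLR1E stood at 45.6, 34.6 and 48.2 cpm in D1 flasks, 49.3, 49.3 and 47.2 cpm in D1+ TGF-β flasks, 31.2, 29.8 and 27.9 cpm in D20 flasks and 28.7, 31.3 and 33.7 cpm in D20+ TGF-β flasks, with D1 flask 2 below its fellows. It differed by day (-0.53 and -0.64, both called, the first at an adjusted p of 0.0102 without D20 flask 3) and not detectably by TGF-β at D20 (0.07, SE 0.11, adjusted p = 0.633). POLR1A was called higher at D20 with TGF-β (0.29), a call lost without any 1 of the D20+ TGF-β flasks, D20 flask 2 or 3 or D1+ TGF-β flask 1 (adjusted p up to 0.0331), and POLR1B had 0.43 (SE 0.12, adjusted p = 0.0122).

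The difference of the TGF-β responses, D20 minus D1, tests whether the later response was the larger one. FBL was the 1 member called, with a difference of 0.71 (SE 0.15, adjusted p = 0.00406), and 0 members were called in the other direction, against 10.4% of all genes called, 4.51% higher and 5.87% lower. The median was 0.24 for the members and 0.02 for all genes, and 37 members had a difference above 0, as did 52.5% of all genes. An adjusted p under 0.05 was reached by 10 members, against 21.5% of all genes, and an unadjusted one by 17. PES1 (0.41, adjusted p = 0.0127) and NOB1 (0.47, adjusted p = 0.0141) came next, and NOP16, DDX18, GNL2, TSR1, POLR1E and PNO1 had differences below 0, from -0.12 to -0.01, none called. Without a composition factor the median of all genes moved to 0.13, the split of all calls from 428 higher and 557 lower to 767 higher and 379 lower, and 6 members were called. Among the 41 members called lower in D20 vs D1, 35 had the smaller fall with TGF-β. A smaller fall with TGF-β is the same quantity as a difference above 0, so this count restates the 37 and is no separate test. The 41 were also chosen by their fall in D20 vs D1, which by itself favours a smaller fall with TGF-β. Across the 43 members the TGF-β responses of both days had a Pearson r of 0.36, a description over genes of the same libraries.

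FBL and the count of members called here rest on single flasks. The FBL call was lost without D1+ TGF-β flask 2 or 3 or D20 flask 2 or 3 (adjusted p 0.0104 to 0.0142, differences 0.65 to 0.74). The number called was 11 without D1 flask 2 and 2 without D20+ TGF-β flask 3.

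Most other genes of the pathway that were tested were also lower in D20 vs D1. A list of 134 further genes, from RNA polymerase I, snoRNP assembly, the small and large subunit, the RNA exosome with its partner nucleases and further nucleolar proteins, had 126 tested genes. In D20 vs D1 83 were called lower and 2 higher (median -0.44, with 17.6% and 18.9% of all genes called), and between D1+ TGF-β and D20+ TGF-β 60 lower and 1 higher (median -0.30, with 17.7% and 17.2%). In D20+ TGF-β vs D20 27 were called higher and 6 lower (median 0.19, with 12.8% and 14.7% of all genes). At day 1, where 6.89% and 6.5% of all genes were called, UTP6 and the exosome nuclease DIS3 were called higher, by 0.34 and 0.33, and IMP3 lower, by -0.42 (median 0.07). Of the further polymerase I genes 1 of 6 was called lower in D20 vs D1 and 0 of 6 between D1+ TGF-β and D20+ TGF-β.

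RRS1, which helps load a ribonucleoprotein on the large subunit, showed a larger fall than any member. It was at 75.0, 67.6 and 90.7 cpm in D1 flasks, 63.2, 58.4 and 59.7 cpm in D1+ TGF-β flasks, 21.6, 20.9 and 19.0 cpm in D20 flasks and 37.8, 36.6 and 40.7 cpm in D20+ TGF-β flasks. The 4 conditions did not overlap, with D1 the highest. RRS1 fell by 1.92 (SE 0.10, adjusted p = 3.50e-08) in D20 vs D1 and was higher by 0.91 (SE 0.11, adjusted p = 2.04e-05) in D20+ TGF-β vs D20, and the responses differed by 1.27 (SE 0.14, adjusted p = 7.79e-05). The nucleolar protein CCDC86 fell by 1.26 without and 0.96 with TGF-β, and POP1, of the nucleases that cut rRNA and transfer RNA precursors, by 1.32 with it. EXOSC8, a subunit of the exosome, was higher by 0.83 in D20+ TGF-β vs D20.

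A few pathway genes ran the other way. ZNHIT6, an assembly factor of box C/D snoRNPs, stood at 46.9, 51.6 and 54.2 cpm in D1 flasks, 56.4, 58.0 and 56.2 cpm in D1+ TGF-β flasks, 90.6, 86.1 and 88.4 cpm in D20 flasks and 56.2, 57.1 and 55.5 cpm in D20+ TGF-β flasks. Here D20 was the highest condition and stood apart from the rest. ZNHIT6 was higher by 0.80 (SE 0.06, adjusted p = 5.55e-07) in D20 vs D1, lower by -0.65 (SE 0.06, adjusted p = 4.52e-06) in D20+ TGF-β vs D20, and its responses differed by -0.81 (SE 0.09, adjusted p = 7.79e-05). RIOK3, a kinase of small subunit maturation, had the same signs (0.54 and -0.59), and GLTSCR2, a nucleolar factor of the large subunit, was the 1 gene higher between D1+ TGF-β and D20+ TGF-β, by 0.83.

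MYC, whose protein is known to bind genes of this pathway, was at 52.4, 36.2 and 51.0 cpm in D1 flasks, 58.9, 57.2 and 53.1 cpm in D1+ TGF-β flasks, 19.9, 20.0 and 18.1 cpm in D20 flasks and 33.5, 26.4 and 36.8 cpm in D20+ TGF-β flasks. D20 stood apart as the lowest condition and D1+ TGF-β as the highest, and D20+ TGF-β flask 3 lay just above D1 flask 2. MYC fell by 1.27 (SE 0.14, adjusted p = 9.49e-06) in D20 vs D1 and by 0.80 (SE 0.14, adjusted p = 3.56e-04) between D1+ TGF-β and D20+ TGF-β, and was higher by 0.74 (SE 0.15, adjusted p = 0.00112) in D20+ TGF-β vs D20. At D1 the difference was 0.28 (SE 0.14, adjusted p = 0.147) and the responses differed by 0.46 (SE 0.20, adjusted p = 0.115), neither called. MXD4 and MXI1, known antagonists that share MYC's partner MAX, were higher in D20 vs D1 by 0.90 and 0.99 and between D1+ TGF-β and D20+ TGF-β by 0.62 and 1.16. Further antagonists did not all move so. MXD1 was called in neither time comparison (0.33 and -0.03), and MNT was called higher only in the one with TGF-β (0.26 and 0.77). MXD3, below the filter, had means of 4.80 cpm in D1, 2.25 in D20, 4.36 in D1+ TGF-β and 3.57 in D20+ TGF-β flasks. In D20+ TGF-β vs D20 MXD4 was lower (-0.54) and MXI1 was not called (0.24), while MXD1 was higher with TGF-β at D1 and D20 (0.76 and 0.40). MYCN was at 0 in every library.

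In both time comparisons and in D20+ TGF-β vs D20, genes of the cell cycle moved in the direction of most members, and over a wider range. All 15 of a list of proliferation genes were called lower in both time comparisons, against 17.6% of all genes without and 17.7% with TGF-β. The medians were -2.63 without and -0.997 with TGF-β. In D20+ TGF-β vs D20, against 12.8% of all genes, 11 of the 15 were called higher (median 1.15). Their summed level was 1207 to 1719.6 cpm in D1 flasks, 1321 to 1369.9 cpm in D1+ TGF-β flasks, 265 to 319 cpm in D20 flasks and 479.8 to 747 cpm in D20+ TGF-β flasks, where flask 3 was the highest. At D1 1 of the 15, TYMS, was called lower with TGF-β and 0 higher, against 6.5% and 6.89% of all genes. There 11 of the 15 lay below 0 (median -0.10), whereas 35 of the 43 members lay above 0 (median 0.09). For the difference of responses 11 of the 15 were called higher (median 1.32), against 1 of the 43 members and 4.51% of all genes. The part of proliferation in the members' differences was not tested.

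Promoters of the members were searched for the E-box CACGTG, the site that MYC and its partner prefer. The letters read the same on both strands. RefSeq promoter windows on GRCh38.p14, from 250 bases before to 50 after an annotated start, matched 36 members by gene identifier, and 17 of these (47.22%) held an E-box. The share was 13.4% of the 7838 tested genes with a window, 8.77% of all 27305 genes in the table and 27.12% of 118 other pathway genes. By role it was 4 of 7 snoRNP genes, 7 of 13 small subunit genes, 5 of 8 large subunit genes, 1 of 3 genes of several steps and 0 of 5 RNA polymerase I genes. The members had 43 windows over 36 genes and the tested genes 11587 over 7838, so the number of starts searched per gene was smaller for the members.

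The E-boxes sat close to the start. Of 18 in the members, 12 lay after the start and 6 before it. Bases 1 to 50 after the start held one in 33.33% of the members, 12.71% of other pathway genes and 1.61% of the tested genes. Shown are the windows of the 6 members with an E-box among those with the largest called changes, with the E-box in capitals.
FBL: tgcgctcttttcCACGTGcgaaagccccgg
RRP9: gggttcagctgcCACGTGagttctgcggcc
MRTO4: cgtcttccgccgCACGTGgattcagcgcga
NOP2: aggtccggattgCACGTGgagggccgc
GNL3: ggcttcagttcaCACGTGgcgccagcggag
DDX21: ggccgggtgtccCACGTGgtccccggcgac

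These lie at chr19:39846356-39846385 (minus strand), chr3:51941892-51941921 (minus), chr1:19251807-19251836 (plus), chr12:6568242-6568268 (minus), chr3:52686026-52686055 (plus) and chr10:68956604-68956633 (plus) on GRCh38.p14. The first base of the E-box is base 7 after the start in FBL and GNL3, 15 in MRTO4 and 36 in NOP2, and 5 and 31 bases before it in RRP9 and DDX21. A match of 6 letters is not a bound site, and no binding was measured here.

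**Figure D5:**
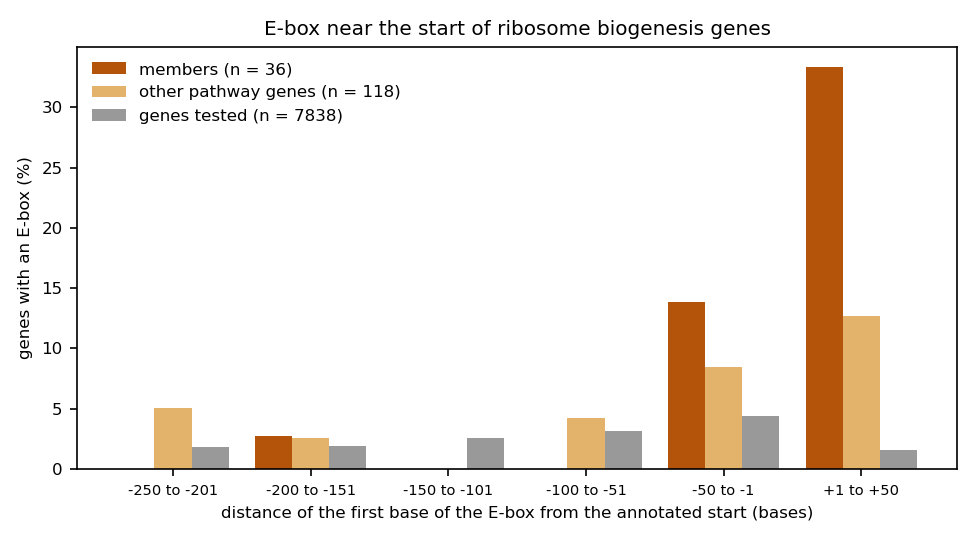
Share of genes (y axis, percent) with an E-box whose first base falls in each bin of distance from an annotated start (x axis, bases), for 36 members, 118 other pathway genes and 7838 tested genes with a RefSeq window. In the bin of bases 1 to 50 the bars stand at 33.33%, 12.71% and 1.61%.

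Members without an E-box fell as well. In D20 vs D1 the median was -0.67 for the 17 with one and -0.60 for the 19 with a window and none, and 17 of each were called lower. Between D1+ TGF-β and D20+ TGF-β the medians were -0.59 and -0.32, with 11 and 10 called lower. In D20+ TGF-β vs D20 they were 0.39 and 0.34, with 10 and 9 called higher.

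The annotation places a coding gene on the opposite strand of 14 members and a coding gene or long noncoding RNA on that of 19. The libraries were made with a directional kit, but whether the counting used strand is not given in the sources used here, so the counts of these genes are uncertain to that extent. The median coefficient of variation between flasks of the members was 9.12% and 5.02% on day 1 without and with TGF-β and 4.61% and 4.95% on day 20, and that of all tested genes was 10.9%, 5.13%, 4.71% and 6.86%. Single members varied more, with DDX10 at 20.3% in D20+ TGF-β and BOP1, of low counts, at 28.0% in D20.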

How the data were processed

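RNA of WI-38 flasks (4 conditions, 3 flasks each) was sequenced in paired ends from directional libraries. Trimmomatic (trimming) and Rsubread (alignment to hg19) are the tools the authors name. Raw counts of 25702 genes in 48 lane columns and voom log2 cpm of 9412 genes were deposited. The counting program, its annotation and its use of strand are not given in the sources used here.

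Columns were assigned to flasks by name and lanes (4 per library) were added up, giving totals of 8674488 to 18286197 counts. Genes that reached 10 cpm in 6 or more libraries were tested in R 4.3.3 with edgeR 4.0.16 (TMM factors, quasi-likelihood fit to all 12 libraries, each condition with a mean of its own, Benjamini-Hochberg adjustment over 9490 genes, threshold 0.01). The fit had a common biological coefficient of variation of 9.35% and 5.50 prior degrees of freedom. Each standard error is the absolute log2 fold change divided by the square root of F. Levels are cpm on the TMM scale, and log2 cpm used a prior count of 2. With 3 flasks against 3 the smallest p of an exact permutation test is 0.1, and no such test was run.

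The members, the lists of other genes and the rule for named genes were chosen with earlier results of these data known. Flask values were given for the 5 called members with the largest changes in each comparison, the member with the highest mean cpm in each role, members whose direction was opposite to that of most called members, and members below the filter. Of the other pathway genes, the 2 largest called rises and falls of each comparison were named, with flask values for RRS1 and ZNHIT6 only. Alternatives were DESeq2 1.42.0, limma 3.58.1 on voom values of 12 libraries or 48 lanes and on the deposited log2 values, RLE or no composition factors, no filter, the filterByExpr rule, a fit to just the 6 libraries compared, a replicate block, each library left out, and an adjusted p of 0.05. The code was tested on simulated data. Exon lengths, overlaps and snoRNAs are from GENCODE on GRCh37, and promoters from RefSeq on GRCh38.p14. Protein sequences were not used here.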

Additional observations from a re-analysis of the deposited data

Results flagged for a closer look

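These genes had TGF-β responses that differed between D20 and D1 by edgeR's quasi-likelihood test of the difference itself, with Benjamini-Hochberg adjustment over 9490 genes. Among the members it was FBL, with a difference of 0.71 on the log2 scale (SE 0.15, adjusted p = 0.00406), from 0.02 at D1 to 0.73 at D20. Among the other pathway genes the response was higher at D20 for RRS1 by 1.27 (SE 0.14, adjusted p = 7.79e-05), for GLTSCR2 by 0.84 (SE 0.17, adjusted p = 0.00357), for IMP3 by 0.66 (SE 0.13, adjusted p = 0.00377) and for RSL24D1, a protein of the large subunit precursor, by 0.56 (SE 0.13, adjusted p = 0.00963). It was lower at D20 for ZNHIT6, with a difference of -0.81 (SE 0.09, adjusted p = 7.79e-05), and for NMD3, an export adaptor of the large subunit, with -0.70 (SE 0.11, adjusted p = 7.79e-04). RIOK3 had a difference of -0.70 (SE 0.12, adjusted p = 0.00138) and SBDS, which readies the large subunit for translation, one of -0.49 (SE 0.10, adjusted p = 0.00507). For FBL the difference ran from 0.62 to 0.83 over the alternatives run, and its call was lost without D1+ TGF-β flask 2 or 3 or D20 flask 2 or 3 (adjusted p 0.0104 to 0.0142).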

How the results depend on the processing

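Over 215 member results and up to 23 alternatives (a fit to only the 6 libraries gives no difference of responses), 0 called results changed sign, and 73 of 97 kept the call throughout. Another 44 sign changes concerned uncalled values between -0.08 and 0.11. In D1+ TGF-β vs D1 the 4 members called higher became 0 without a composition factor, 0 without a gene filter, 0 with only the 6 libraries, 1 with the replicate block, 2 on the deposited log2 values, 15 with 48 lanes as samples and 10 at an adjusted p of 0.05, and 0 to 6 without 1 library. In D20+ TGF-β vs D20 the 23 became 35 with lanes as samples and 13 to 31 without 1 library. Between D1+ TGF-β and D20+ TGF-β the 0 called higher became 1 (UBTF) without a composition factor, with lanes as samples or at 0.05, and 0 to 1 without 1 library, and the 28 lower 24 to 32. In D20 vs D1 the 0 called higher became 1 with lanes as samples, and the 41 lower 37 to 41 without 1 library. For the difference of responses the 1 called higher became 6 without a composition factor, 3 with DESeq2, 20 with lanes as samples, 10 at 0.05 and 0 to 11 without 1 library. Lanes repeat the same RNA, so the fit on lanes understates the spread between flasks, and the other causes were not tested.

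Neither the labels nor the paper state that same-numbered flasks are paired across conditions. Of 18 pairs of same-numbered libraries, 4 had a correlation of deviations over 0.1 (range -0.22 to 0.32). With the replicate block the counts were 1, 22, 28, 40 and 1 in the order above. Depth limits the members at the low end, BOP1 with 26 to 114 counts and RRP9 with 96 to 388.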
